A study of Homo sapiens with 4 samples.

Results

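The genes described here are 10 that act at the G1 restriction point: the D cyclins CCND1, CCND2 and CCND3, their kinases CDK4 and CDK6, the retinoblastoma gene RB1, and the CDK inhibitors CDKN1A, CDKN1B, CDKN2A and CDKN2B. They were chosen by symbol. Each of the 10 had 1 probe set of its own, out of 20497 genes measured by such probe sets. RNA came from MCF10A, a non-tumorigenic, immortalized human breast epithelial line, on 1 whole-transcript array per group. The 4 groups carried stable transfections of Her2 with the H1047R variant of PIK3CA (here the double array), of that PIK3CA variant alone, of Her2 alone, or of LacZ, a bacterial enzyme gene used as the control. All cells grew untreated in SFIHE medium. The labels state the aim as finding genes under the control of either oncogene or of the pair. The sources used here do not name the promoter that drives each transgene, nor whether a line is 1 clone or a pool. All groups share the MCF10A background, which is known to lack the CDKN2A and CDKN2B locus.

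In G1, growth factor signals raise D cyclins, which activate CDK4 and CDK6. These kinases phosphorylate RB1, a pocket protein that otherwise holds E2F transcription factors in check, and E2F then switches on genes of DNA replication. The INK4 inhibitors p16 (CDKN2A) and p15 (CDKN2B) bind CDK4 and CDK6, while p21 (CDKN1A) and p27 (CDKN1B) act on cyclin-CDK complexes, above all those of CDK2. Her2, a receptor tyrosine kinase, and PI3K, the lipid kinase whose catalytic subunit PIK3CA encodes, are known to raise cyclin D1 and to lower p27, much of it by protein turnover that RNA levels do not show.

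All levels below are on the deposited log2 scale, where 1 unit of difference means 2-fold. With 1 array per group no difference has a replicate check, no SD can be given and no test was made. The medians over all 53617 probe sets lay between 1.13 and 1.17 and serve as a guide to background. Genes with a level of 5 or more on any of the arrays, 4310 in all, are called counted. The number of arrays limits the precision of every value below. The ERBB2 (Her2) probe set, which is also annotated to the microRNA gene inside ERBB2, checks the labels and went against them. It read 7.39 on the double array, 8.48 on the array labelled PIK3CA-H1047R, 4.29 on the array labelled Her2 and 5.96 on the LacZ array. PIK3CA itself is not analysed here. All groups are therefore named as labelled, and directions that depend on the single-gene labels carry this doubt. On the LacZ array 4 of 5 measured basal epithelial markers and 3 of 8 luminal or general epithelial markers reached 5. CDH1 (E-cadherin) was at 9.34 and the basal keratin KRT5 at 7.27 there, while KRT14 was at 1.47 and ESR1 at 0.58. On the double array 3 of the 4 counted basal markers were at least 2-fold lower than on LacZ. So were 3 of the 3 counted luminal or general ones (all counted genes: 11.1% lower). KRT7, 1 of those 3, reached 5 on the LacZ array alone, so it was counted through the array where it is high. Of all measured markers, 3 of 5 basal ones were lower and 1 higher. Of the luminal or general ones, 3 of 8 were lower and 0 higher (all genes: 4.5% lower and 6.61% higher). CDH1 read 5.07 on the double array, and KRT5 7.14. KRT14, a basal marker that was not counted, went the other way, at 3.43 there, 1.96 above LacZ. Of 7 measured fibroblast markers, 3 reached 5 on the double array, 0 on the PIK3CA-H1047R array, 2 on the Her2 array and 0 on the LacZ array. Their mean log2 level was 3.93, 2.00, 2.75 and 1.89 on those arrays in the same order. LUM (lumican) read 6.26 on the double array and 0.78 on the LacZ array (a difference of 5.48, or -0.10 after cyclic loess of the counted genes and 5.52 after loess of all), whereas PDGFRB and COL1A2 stayed at 0.82 and 0.84 on the double array. The part of such cells or such a state in the results below was not tested. In bulk RNA, fewer cells of a type and less RNA per cell cannot be told apart.

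Sequences near the starts of these genes are shown first, because the comparison below sets the G1 genes beside the E2F targets they control. RefSeq windows of 300 bases (250 before and 50 after a start, GRCh38.p14) were searched for an E2F motif and a GC box. The E2F motif was TTTNNCGC, with each N a C or a G, and the GC box, a binding sequence of SP1, was GGGCGG. Both strands were searched, and matches of the 2 motifs may overlap. The E2F motif occurred in 3.31% and the GC box in 45.0% of all 35116 windows. Among the G1 genes, 8 of 10 had windows (12 in all), 0 of these genes had the E2F motif and 7 had a GC box. The shares above are per window. Counted so, the E2F motif was in 0 and a GC box in 8 of the 12 windows of the G1 genes. Beside a share of 3.31%, 0 of 12 is no result about these genes. Among 14 genes listed as G1/S targets of E2F, 11 had windows and 9 of those had the E2F motif (9 of 15 windows). That list holds known E2F targets, so its share is not an independent finding. Of the E2F factors and pocket proteins, 5 of 10 genes with windows had the E2F motif (5 of 14 windows). Of the cyclin E and A genes with CDK2, it was 1 of 7 (1 of 8 windows). As examples with the motif, the windows of RBL1, the pocket protein p107, and of MCM6, a subunit of the replicative helicase, are printed with it in capitals. RBL1 lies at chr20:37095948-37096247, minus strand, and MCM6 at chr2:135876394-135876693, minus strand.
RBL1: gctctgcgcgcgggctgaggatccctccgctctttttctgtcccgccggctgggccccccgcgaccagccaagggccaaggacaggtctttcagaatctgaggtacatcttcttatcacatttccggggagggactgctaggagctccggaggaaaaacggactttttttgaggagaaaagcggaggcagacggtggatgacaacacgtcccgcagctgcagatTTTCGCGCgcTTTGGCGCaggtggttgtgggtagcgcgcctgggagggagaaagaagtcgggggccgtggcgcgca
MCM6: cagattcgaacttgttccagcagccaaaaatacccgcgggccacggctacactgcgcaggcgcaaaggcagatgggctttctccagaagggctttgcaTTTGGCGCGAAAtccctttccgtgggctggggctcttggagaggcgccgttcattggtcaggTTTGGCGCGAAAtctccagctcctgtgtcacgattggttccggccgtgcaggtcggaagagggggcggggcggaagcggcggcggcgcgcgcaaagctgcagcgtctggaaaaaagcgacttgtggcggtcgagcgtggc
The windows of CDK4 (chr12:57752261-57752560, minus strand), CDK6 (chr7:92836524-92836823, minus strand) and CDKN1A (chr6:36678464-36678763, plus strand) are printed with GC boxes in capitals, which read CCGCCC where the match is on the other strand.
CDK4: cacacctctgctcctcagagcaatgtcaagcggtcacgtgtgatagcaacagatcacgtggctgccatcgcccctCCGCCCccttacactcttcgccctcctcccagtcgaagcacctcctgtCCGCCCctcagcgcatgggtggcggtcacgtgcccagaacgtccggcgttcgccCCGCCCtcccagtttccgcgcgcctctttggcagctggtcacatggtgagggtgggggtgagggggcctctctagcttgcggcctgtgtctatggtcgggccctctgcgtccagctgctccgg
CDK6: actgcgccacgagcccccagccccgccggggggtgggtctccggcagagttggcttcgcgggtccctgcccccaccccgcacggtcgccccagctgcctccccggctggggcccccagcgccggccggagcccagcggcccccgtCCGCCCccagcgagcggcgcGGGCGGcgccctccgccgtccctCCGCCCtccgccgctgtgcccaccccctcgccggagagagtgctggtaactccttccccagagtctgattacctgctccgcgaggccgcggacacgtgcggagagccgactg
CDKN1A: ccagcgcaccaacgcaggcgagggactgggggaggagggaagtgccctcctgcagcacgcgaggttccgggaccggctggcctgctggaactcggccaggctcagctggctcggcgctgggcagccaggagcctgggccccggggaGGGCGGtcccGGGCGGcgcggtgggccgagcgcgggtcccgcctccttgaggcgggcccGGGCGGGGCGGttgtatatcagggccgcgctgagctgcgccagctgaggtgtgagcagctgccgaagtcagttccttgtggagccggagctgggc
The capitals mark 2 matches in RBL1, 4 overlapping by pairs in MCM6, 3 in CDK4, 3 in CDK6 and 4 in CDKN1A. A match is a description of letters, and a missing match says only that these letters are not in this window. For RB1 the table holds 1 window, which begins a transcript 173 kb inside the gene, so the main start of RB1 was not searched.

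Among the D cyclins, CCND1 was the one well above background. CCND1, which encodes cyclin D1, read 6.49 on the double array, 6.93 on the PIK3CA-H1047R array, 6.06 on the Her2 array and 6.74 on the LacZ array. It was thus lowest on the array labelled Her2, at -0.68 against LacZ (0.624 times the LacZ level), and never reached a 2-fold difference. Its difference from LacZ was -0.25 on the double array and 0.20 on the PIK3CA-H1047R array. CCND3 (cyclin D3) lay below 5 throughout, at 3.51, 3.04, 3.31 and 3.63 in the same order. Its range over the arrays was 0.59, and the LacZ array was highest. CCND2 (cyclin D2) read between 0.64 and 0.92, below the median of every array, so differences between its values say nothing about its level.

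The kinases CDK4 and CDK6 had different patterns. CDK4 read 6.80 on the double array, 5.92 on the PIK3CA-H1047R array, 6.80 on the Her2 array and 6.86 on the LacZ array. The PIK3CA-H1047R array alone stood apart, at -0.95 against LacZ (0.518 times), just short of 2-fold. On the double array the difference from LacZ was -0.064. CDK6, the second kinase of D cyclins, read 6.03 on the double array, 6.70 on the PIK3CA-H1047R array, 6.45 on the Her2 array and 5.63 on the LacZ array. Both single-gene arrays lay above LacZ, by 1.07 (2.10-fold) with PIK3CA-H1047R and by 0.81 with Her2, and the double array by 0.39. The array that carries both labels therefore lay below each single-gene array, by -0.67 against PIK3CA-H1047R and by -0.42 against Her2. The departure from additivity, which is the double value minus each single value plus LacZ, was -1.48 for CDK6 and 0.95 for CDK4. In absolute size, 18.5% of the counted genes departed by at least 1.

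RB1 showed the widest range of the 10 genes. It read 7.01 on the double array, 5.97 on the PIK3CA-H1047R array, 6.08 on the Her2 array and 5.32 on the LacZ array. The 3 oncogene arrays all lay above LacZ, by 1.69 (3.23-fold) on the double array, 0.66 with PIK3CA-H1047R and 0.76 with Her2. Against the single-gene arrays the double array was higher by 1.03 (PIK3CA-H1047R) and 0.93 (Her2). The departure from additivity was 0.27. The range of RB1, 1.69, exceeded that of 87.1% of the counted genes, whose median range was 0.82. CDK6 (1.07), CDK4 (0.95), CCND1 (0.88) and CDKN1A (0.62) had ranges nearer to that median.

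**Figure D1:**
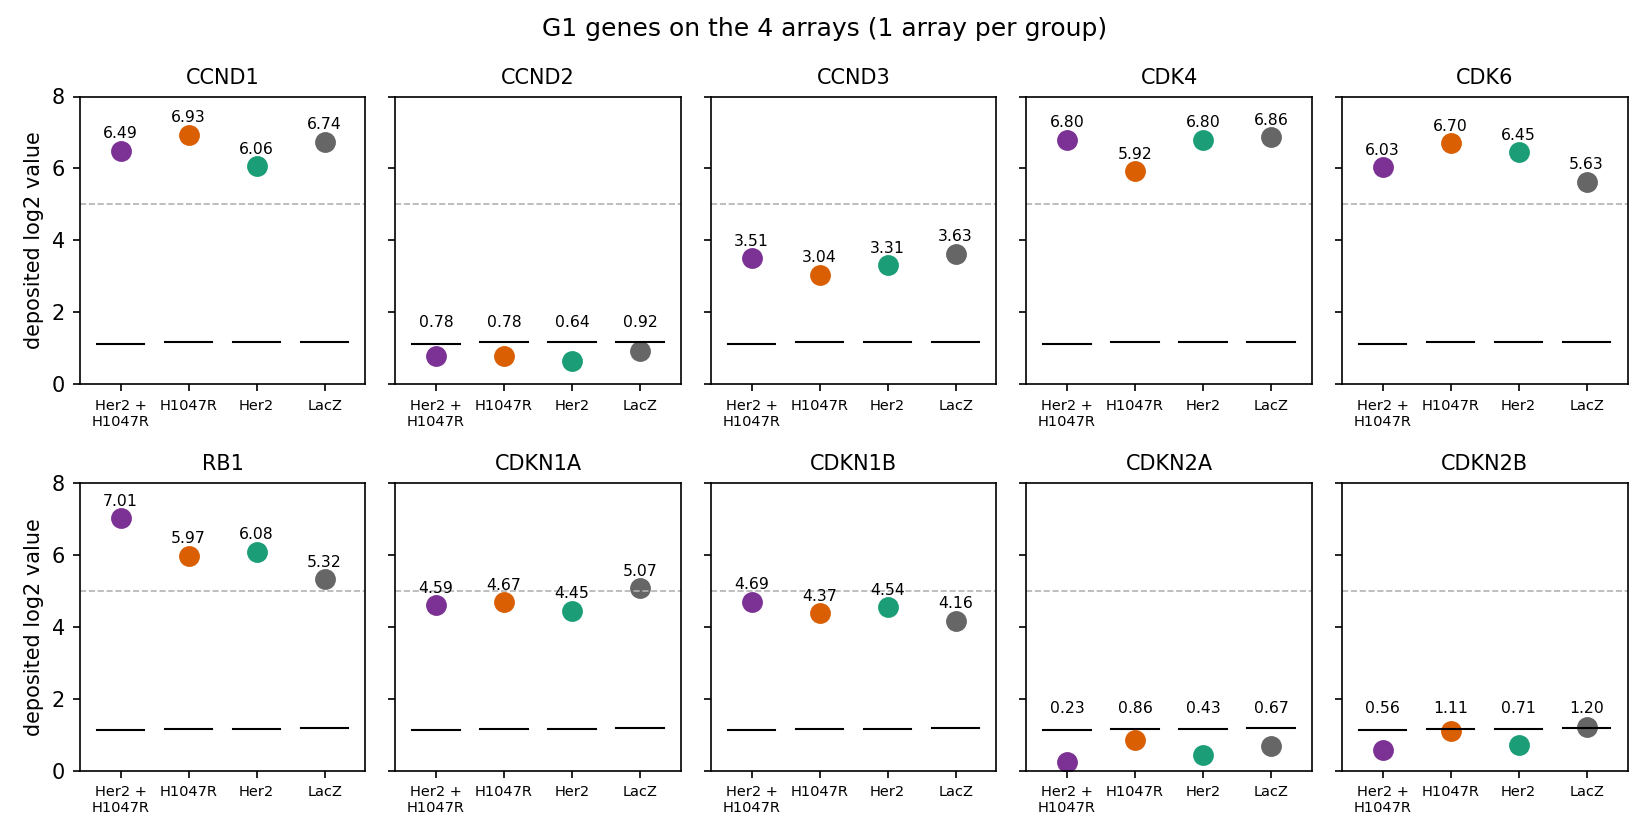
Deposited log2 value (vertical axis) of each of the 10 genes on the 4 arrays, 1 point per array, with H1047R standing for PIK3CA-H1047R. Black bars mark each array's median over all probe sets and the dashed line the value of 5. RB1 is highest on the double array (7.01), CDK4 lowest on the PIK3CA-H1047R array (5.92), and CCND2, CDKN2A and CDKN2B lie near the bars.

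The inhibitors CDKN1A and CDKN1B differed little. CDKN1A, the p53 target that encodes p21, read 4.59 on the double array, 4.67 on the PIK3CA-H1047R array, 4.45 on the Her2 array and 5.07 on the LacZ array. All 3 oncogene arrays lay below LacZ, by -0.47, -0.39 and -0.62. CDKN1A was counted through the LacZ array alone, where it was highest, so a lower value on the others follows in part from the filter. CDKN1B, which encodes p27, read 4.69, 4.37, 4.54 and 4.16 on the same arrays. Here the 3 oncogene arrays lay above LacZ, by 0.53, 0.21 and 0.38, the opposite side from CDKN1A. CDKN1B stayed below 5 on all arrays, and its largest difference was 1.44-fold.

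The INK4 inhibitors CDKN2A and CDKN2B lay at background on all 4 arrays. CDKN2A read 0.23 on the double array, 0.86 on the PIK3CA-H1047R array, 0.43 on the Her2 array and 0.67 on the LacZ array, each below the median of its array. CDKN2B read 0.56, 1.11, 0.71 and 1.20 in the same order, and only the LacZ value exceeded its array's median, by 0.028. MTAP, the methylthioadenosine phosphorylase gene next to CDKN2A, was at background too, between 0.59 and 1.20. In the order of genes along the chromosome, MIR31HG, a long noncoding RNA gene on the far side of MTAP, was well above background on every array. Farther out on that side RPS6, a ribosomal protein gene, read between 5.50 and 5.98, FOCAD between 3.30 and 4.30 and MLLT3 between 1.98 and 3.67, while HACD4 stayed under the medians. MIR31HG read 4.12 on the double array, 5.42 on the PIK3CA-H1047R array, 6.33 on the Her2 array and 5.78 on the LacZ array. KLHL9, an adaptor of a ubiquitin ligase that lies among the interferon genes, read between 3.88 and 4.83. On the other side, DMRTA1 (1.36 to 1.78) and TUSC1 (1.66 to 2.05) stayed within 1 of the array medians, as did IZUMO3. ELAVL2, an RNA-binding protein gene known from neurons, read 3.13 on the double array but 1.09, 0.85 and 0.82 on the PIK3CA-H1047R, Her2 and LacZ arrays. The interferon genes named here (IFNA1, IFNA2, IFNA8, IFNB1, IFNE and IFNW1) lay no more than 1 above the median of any array. A background value does not by itself show a deletion, since genes that are present but silent read the same.

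**Figure D2:**
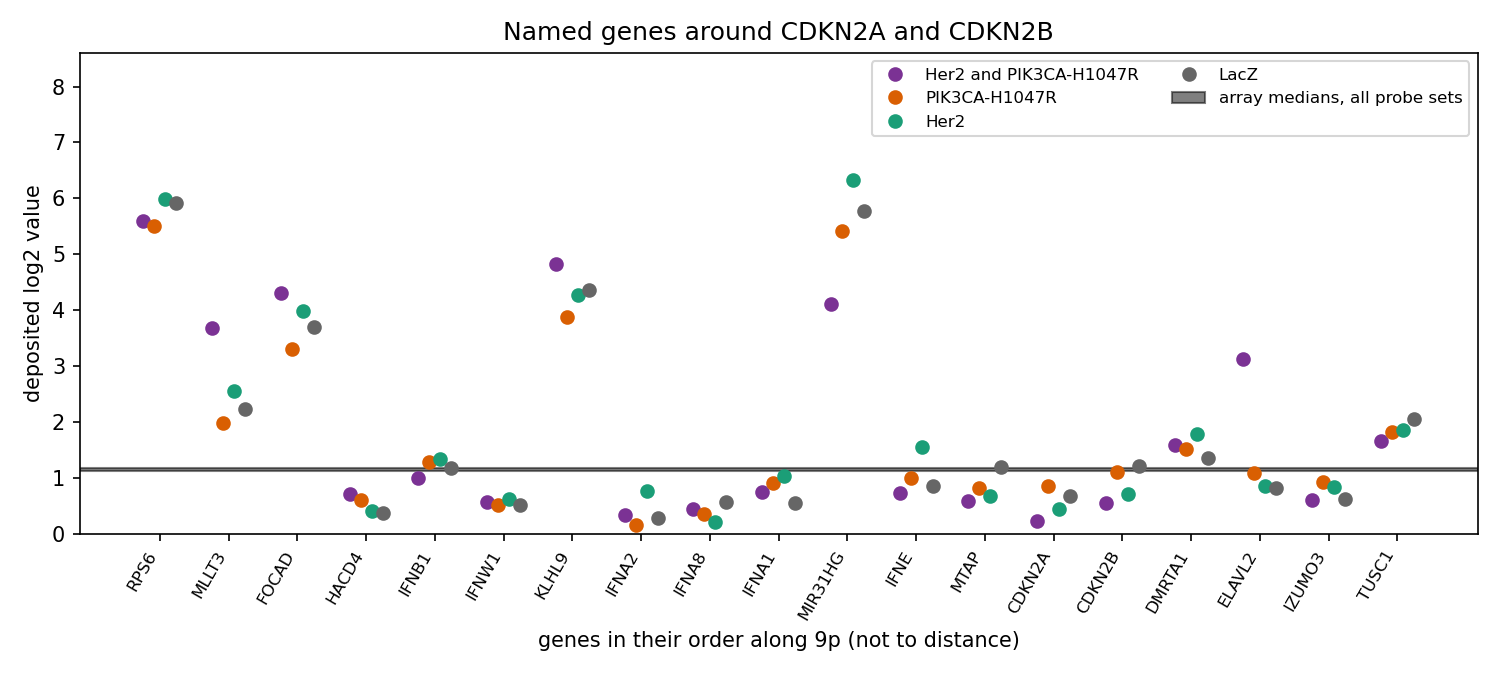
Deposited log2 value (vertical axis) of 19 genes around CDKN2A and CDKN2B, placed in chromosomal order with no scale of distance, 1 point per array. The dark band spans the array medians over all probe sets (1.13 to 1.17). MIR31HG and KLHL9 lie above the band on all arrays, and MTAP, CDKN2A and CDKN2B at or below it, apart from LacZ values of 1.20.

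Counted against the whole array, few of these genes reached a 2-fold difference. Of the 10 genes 5 were counted (CCND1, CDK4, CDK6, CDKN1A and RB1), and CDKN1A passed through the array where it is high. None of the other 5 reached 2-fold in any pair without the filter. Without it, the share of all 20497 genes at 2-fold or more was 11.1% for the double array, 4.57% for PIK3CA-H1047R and 3.52% for Her2 against LacZ. For the double array it was 8.87% against PIK3CA-H1047R and 7.1% against Her2. For the double array against LacZ, 1 of 5 was 2-fold different (RB1), beside 24.9% of all counted genes. RB1 lay above 94.0% of them. For PIK3CA-H1047R against LacZ it was 1 of 5 (CDK6), beside 11.1%. This call lies at the threshold. CDK6 was at 0.99 both after quantile normalization and after cyclic loess of the counted genes, where CDK4 instead passed 2-fold, at -1.02 and -1.03. After cyclic loess fitted on all genes, both passed, at 1.02 for CDK6 and -1.005 for CDK4. For Her2 against LacZ it was 0 of 5, beside 5.5%. For the double array it was 1 of 5 (RB1) against PIK3CA-H1047R, beside 18.9%, and 0 of 5 against Her2, beside 15.2%. A count of 0 or 1 among 5 genes is close to these shares and is no result about the genes. The median difference of the 5 genes was -0.064 for the double array, 0.20 for PIK3CA-H1047R and -0.068 for Her2 against LacZ. The medians of all counted genes were 0.045, 0.068 and 0.020. These 3 comparisons share the LacZ array.

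**Figure D3:**
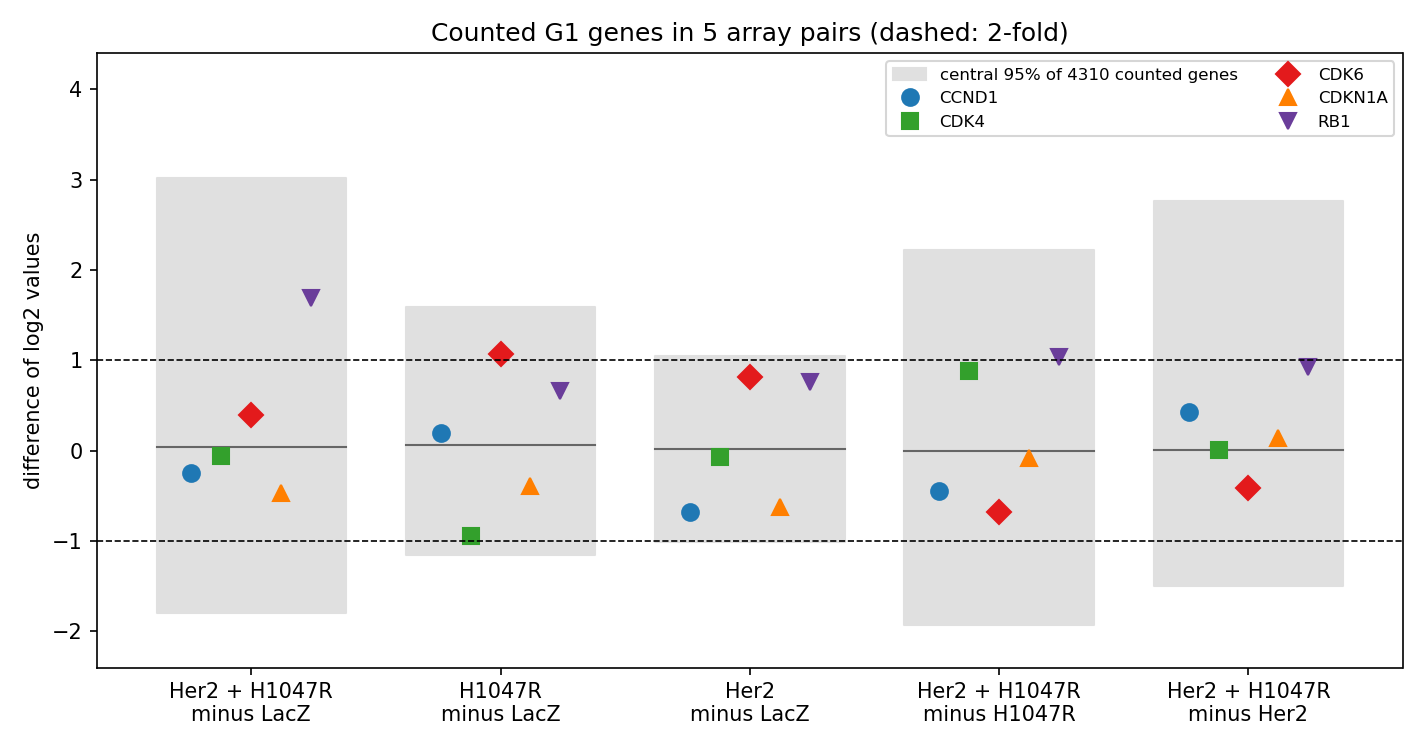
Difference of log2 values (vertical axis) of the 5 counted G1 genes in 5 pairs of arrays. Grey bands hold the central 95% of the 4310 counted genes with their median as a line, and dashed lines mark 2-fold. RB1 (1.69 between the double and LacZ arrays) and CDK6 (1.07 between PIK3CA-H1047R and LacZ) pass the dashed line, and every point lies inside its band.

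Each label can be followed in 2 pairs without a common array. For the Her2 label these are Her2 against LacZ and the double array against PIK3CA-H1047R. RB1 differed by 0.76 and 1.03 in them, CCND1 by -0.68 and -0.44, and CDKN1A by -0.62 and -0.077. CDK6 turned sign, at 0.81 and -0.67. For the PIK3CA-H1047R label, measured against LacZ and between the double and Her2 arrays, RB1 differed by 0.66 and 0.93 and CCND1 by 0.20 and 0.43. CDK6 turned sign here too, at 1.07 and -0.42, and CDK4 differed by -0.95 and 0.0045. The sign for RB1 was thus positive with each label in both pairs. For CCND1 it was negative with the Her2 label in both and positive with the PIK3CA-H1047R label in both, all under 2-fold. With the labels of the single-gene arrays exchanged, RB1 stays positive throughout, as its order requires. The signs of CCND1 turn, to 0.20 and 0.43 for Her2 and -0.68 and -0.44 for PIK3CA-H1047R.

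Downstream of RB1, the E2F targets read higher on the double array. Of 13 measured G1/S targets of E2F, 13 were at least 2-fold higher there than on the LacZ array, with a median difference of 1.84. Over all 20497 genes 6.61% were 2-fold higher and 4.5% lower, and over the counted genes 13.8% and 11.1%. Of the 9 counted targets 9 were higher (median 2.65), but 6 of them reached 5 on the double array alone and so were counted through the array where they are high. MCM6, whose window is printed above, read 6.01 on the double array, 3.38 with PIK3CA-H1047R, 3.46 with Her2 and 3.36 with LacZ. TYMS (thymidylate synthase) was higher by 5.31 and CLSPN (claspin, a replication checkpoint adaptor) by 4.36. RRM2 (a ribonucleotide reductase subunit) was higher by 3.27 and CDC6, a replication licensing factor, by 3.16. These genes and MCM6 are all among the targets counted through the double array alone. Of the targets that reached 5 on every array, PCNA was higher by 1.81, MCM4 by 1.84 and MCM7 by 1.42. CLSPN and CDC6 were within 1 of the array median on the LacZ array, so their differences have no measured level under them. Cyclic loess of the counted genes left 6 of 9 past 2-fold (median 1.44), with RRM2 at 0.51, CLSPN at -0.15 and CDC6 at -0.71. That curve was fitted on genes kept for a high value on some array, and fitted on all genes it gave 9 of 9 (median 2.64). With PIK3CA-H1047R against LacZ, 2 of 9 were 2-fold higher (median 0.28), beside 7.03% of counted genes higher and 4.08% lower. That count was 0 when either normalization was fitted on the counted genes and 2 when fitted on all.

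Among the partners of the G1 genes, RBL1 and RBL2, the pocket proteins related to RB1, differed from each other. RBL1 read 6.54 on the double array, 3.91 with PIK3CA-H1047R, 3.65 with Her2 and 3.98 with LacZ. RBL2 (p130, the pocket protein of resting cells) read 5.79, 5.17, 5.87 and 5.57 in the same order. Thus RBL1 was high on the double array alone, while RBL2 varied within 0.70. E2F7, a repressive E2F, was higher than LacZ by 3.21 on the double array (0.30 after cyclic loess of the counted genes) and by 2.15 with PIK3CA-H1047R. With Her2 it differed by 0.48, and its LacZ value, 1.84, was near background. E2F4, the E2F that binds RBL2, differed by -0.56, 0.12 and -0.80 in that order, and its dimer partner TFDP1 by 0.36, -0.22 and -0.52. Of the 12 measured genes of this group, 4 were 2-fold higher on the double array than on LacZ and 0 lower (all genes: 6.61% and 4.5%). Among the 5 counted genes the 2 that were higher, E2F7 and RBL1, reached 5 on the double array alone (1 higher after cyclic loess of the counted genes).

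Of the cyclins that follow D cyclins in the cycle, cyclin E2 and cyclin A2 stood out on the double array. CCNE2 (cyclin E2) read 5.17 there, against 1.19 with PIK3CA-H1047R, 1.32 with Her2 and 0.88 with LacZ. CCNA2 (cyclin A2) read 7.79, 4.91, 2.41 and 3.09 in the same order. CCNE2 was at background on the other 3 arrays, so its difference of 4.29 between the double and LacZ arrays has no measured level under it. That difference was -1.09 after cyclic loess of the counted genes and 4.33 after loess fitted on all genes. CCNA2 was 4.70 above LacZ there and 1.83 with PIK3CA-H1047R. CCNA1, the cyclin A of the germ line, was 2-fold higher than LacZ with PIK3CA-H1047R (1.24) and differed by 0.021 on the double array. It reached 5 on the PIK3CA-H1047R array alone, and so was counted through the array where it is high. CCNE1 (cyclin E1), which was not counted, read 4.36 on the double array and 3.69 with LacZ, a difference of 0.67 and under 2-fold. CCNH, the cyclin of the CDK-activating kinase, differed from LacZ by 1.43, 0.40 and 0.98 on the double, PIK3CA-H1047R and Her2 arrays. Of 10 measured genes in this group, 5 were 2-fold higher and 0 lower on the double array against LacZ (all genes: 6.61% and 4.5%). The 3 counted genes among them, CCNE2, CCNA2 and CCNH, reached 5 on the double array alone (2 higher and 1 lower after cyclic loess of the counted genes).

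Among genes for the turnover of cyclin D and p27, SKP2, the F-box protein that marks p27 for destruction, read 7.27 on the double array, 4.67 with PIK3CA-H1047R, 6.10 with Her2 and 5.49 with LacZ. SKP2 thus stood above LacZ with Her2 and on the double array, by 0.61 and 1.78, and below it with PIK3CA-H1047R, by -0.82. CKS1B, the cofactor that SKP2 needs for p27, differed from LacZ by 1.77 on the double array (-0.20 after cyclic loess of the counted genes, 1.75 after loess on all). CKS1B differed by 0.33 with PIK3CA-H1047R and -0.15 with Her2. CKS2, its homologue, differed by 2.15, 0.86 and -0.35 on the double, PIK3CA-H1047R and Her2 arrays. CDC34, a ubiquitin-conjugating enzyme, read 3.69 on the double array, 5.03 with PIK3CA-H1047R, 3.98 with Her2 and 4.98 with LacZ. GSK3B, the kinase that marks cyclin D1 for export and destruction, differed from LacZ by -0.72, -0.046 and 0.029. On the double array 4 of 13 measured genes of this group were 2-fold higher and 2 lower against LacZ (all genes: 6.61% and 4.5%). Among 6 counted genes it was 3 and 1 (all counted genes: 13.8% and 11.1%). CKS1B was counted through the double array alone, and CDC34, the lower gene, through the PIK3CA-H1047R array alone. Cyclic loess of the counted genes gave 2 and 1. CDKN3, a CDK-binding phosphatase that is active in dividing cells, was the single counted gene among the other CDK inhibitors, and reached 5 on the double array alone. It read 6.18 on the double array, 4.42 with PIK3CA-H1047R, 3.41 with Her2 and 3.64 with LacZ.

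Of 10 counted upstream regulators of the G1 genes, 2 were 2-fold higher and 2 lower on the double array than on LacZ, which is near the 13.8% and 11.1% of all counted genes. MYC, a transcription factor that raises D cyclins and represses CDKN1A, read 7.10 on the double array, 7.75 with PIK3CA-H1047R, 7.60 with Her2 and 8.40 with LacZ. All 3 oncogene arrays lay below LacZ, the double array by more than 2-fold (-1.30). EZH2, the Polycomb methyltransferase known to silence CDKN2A, was higher by 2.18 on the double array and 1.02 with PIK3CA-H1047R (0.88 after quantile normalization), and differed by -0.22 with Her2. The MYC antagonist MXD1 differed by -1.10, 0.50 and -0.023 in that order. DMTF1, an activator of the ARF transcript of CDKN2A, differed by 1.40, 0.45 and 1.39. FOXO1, a PI3K-restrained activator of CDKN1B, differed by 0.70, -0.28 and 0.29.

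The last list joins mitotic genes with subunits of DREAM, the complex in which RBL1 and RBL2 repress them. The mean log2 level of its 17 genes was 5.94 on the double array, 4.36 with PIK3CA-H1047R, 2.61 with Her2 and 2.84 with LacZ. The proliferation marker MKI67 read 8.56, 6.76, 3.39 and 4.60 in that order. Single genes departed from the order of these means: BUB1 and CENPF, among others, were higher with Her2 than with LacZ. LIN37, a DREAM subunit, was lowest on the double array (5.35) and highest on LacZ (6.16). On the double array 14 of 17 measured genes were 2-fold higher than on LacZ, with a median of 3.15 (all genes: 6.61% higher). Among the 13 counted it was 12 (9 after cyclic loess of the counted genes), of which 8 reached 5 on the double array alone. On the PIK3CA-H1047R array it was 11 of the 13 counted with a median of 1.85, beside 7.03% of all counted genes (8 of 13 after either normalization of the counted genes, 11 after either on all). CDK1, the mitotic kinase, read 6.62 on the double array and 1.66 on LacZ, whereas CDK4 read 6.80 and 6.86 on those arrays. CDK1 reached 5 on the double array alone, and its LacZ value lay near the array median of 1.17. Its difference of 4.96 was 1.76 after cyclic loess of the counted genes and 4.96 after loess on all. Dividing cells were not counted in these data, and the part of their number in the levels of G1 genes was not tested.

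**Figure D4:**
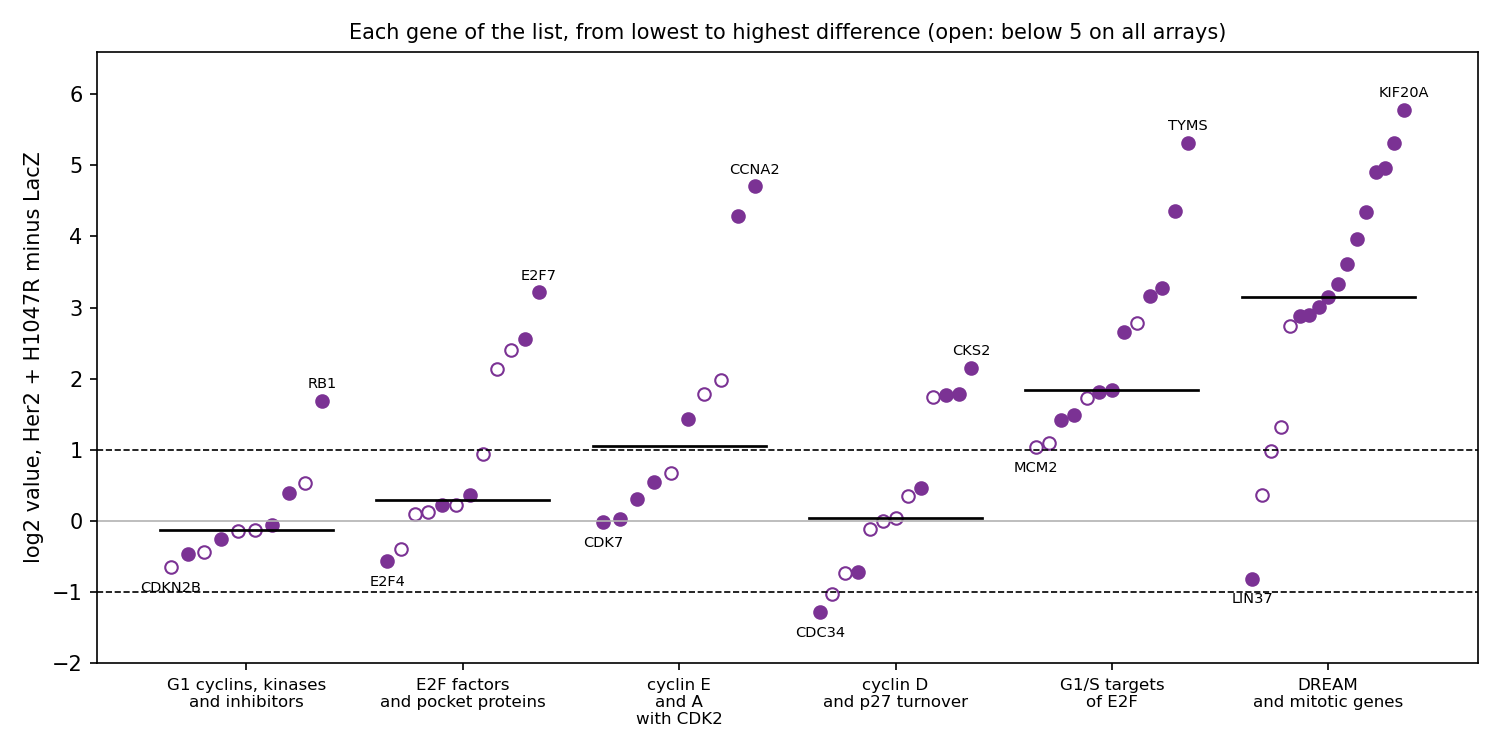
Difference of log2 values between the double array and the LacZ array (vertical axis) for every measured gene of 6 lists, sorted within each list. Filled points are genes that reached 5 on at least 1 array, open points the others, black bars list medians and dashed lines 2-fold. The G1 genes run from -0.65 (CDKN2B) to 1.69 (RB1), and the DREAM and mitotic genes up to 5.78 (KIF20A).

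For the 4 counted G1 genes with the widest range, the counted genes with the nearest profile were found by the Euclidean distance of log2 values centred per gene over the 4 arrays. For RB1 these were HAT1 (distance 0.057), ATG4C (0.12) and SNAPC1 (0.12). HAT1, a histone acetyltransferase, read 7.34 on the double array, 6.25 with PIK3CA-H1047R, 6.41 with Her2 and 5.67 with LacZ. For CDK6 they were RYBP (0.083), PTPN12 (0.11) and ZC3H6 (0.14), for CDK4 CSTF1 (0.10), TOR1A (0.11) and PIGU (0.12), and for CCND1 SMARCA4 (0.065), CITED4 (0.068) and EHD4 (0.15). With 4 points per profile and 4310 candidates, close neighbours are easy to find, and these names describe the arrays only.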

How the data were processed

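RNA of 4 MCF10A lines was measured on 1 Affymetrix whole-transcript array each. The authors deposited log2 values for each probe set. RMA, run in oligo, is named for them per the submitters' processing notes. It corrects background, equalizes the arrays and combines the probes of a set, so values near background are compressed. No source used here gives versions or filters, and the log base follows from RMA and the range of values. The platform annotation gave 1 symbol for 23871 of 53617 probe sets, several symbols for 1842, and left 27904 without a name here. Current symbols came from gene identifiers (RefSeq, GRCh38.p14), whose coordinates served only for gene order and for the promoter windows.

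Small RNAs, ERBB2 and PIK3CA were left out of counts, and the probe set with the highest mean stood for a gene with several. A gene was called at a log2 difference of 1. The residual of an additive fit would be non-additivity and not replicate error, so no p-value was computed. Named genes were the 10 G1 genes, up to 6 counted genes per list by range over the arrays, all neighbours on 9p21, and the nearest profiles. The lists, like the 10 genes, were chosen with earlier results of these data known. PDGFRB, COL1A2, LUM, CDH1, ESR1, KRT5, KRT7 and KRT14 were picked from the marker lists with their values known. CCNE1 and LIN37 were named outside the rule by range, as exceptions within their lists, also with their values known. The alternatives run were other filters (none, 3, 7), quantile normalization and cyclic loess (3 iterations, limma 3.58.1) of the counted genes, the mean of probe sets, a 1.5-fold threshold and exchanged single-gene labels. The same normalizations fitted on all genes were added after seeing the data. The counting was tested on simulated data. Python 3.11.15 and R 4.3.3 were used.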

Additional observations from a re-analysis of the deposited data

Results flagged for a closer look

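For 6 of the 10 genes a label's 2 measurements, in pairs that share no array, had opposite signs. The share of all genes that do the same was not computed, so this count is no result about the 10 genes. The difference between the pairs was not tested, since each rests on 4 single arrays. The pair with the other oncogene present is given first. The gap, the first value minus the second, is the departure from additivity defined above. It is the same for both labels by definition, so the 2 labels of a gene are not separate observations. CDK6 differed by -0.67 and 0.81 with the Her2 label and by -0.42 and 1.07 with the PIK3CA-H1047R label, a gap of -1.48. CDK4 differed by 0.88 and -0.068 with the Her2 label and by 0.0045 and -0.95 with the PIK3CA-H1047R label, a gap of 0.95. CCND3, below 5 on all arrays, differed by 0.47 and -0.32 with the Her2 label and by 0.20 and -0.59 with the PIK3CA-H1047R label, a gap of 0.79. With the PIK3CA-H1047R label CDKN1A differed by 0.15 and -0.39, a gap of 0.54. For CCND2 (gap 0.27) and CDKN2A (gap -0.38), at background on all arrays, the signs carry no information about level.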

How the results depend on the processing

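No paired analysis was possible because each group has 1 array. Of the 5 counts of genes at least 2-fold different, none moved without a filter, with a filter at 3, after quantile normalization or cyclic loess of the counted genes, or with the mean of probe sets. For PIK3CA-H1047R against LacZ the gene called was then CDK4 and not CDK6 under either normalization. Cyclic loess fitted on all genes, an alternative chosen after seeing the data, called 2 there, CDK4 and CDK6, and moved no other count. CDK4 departed from additivity by 1.05 after loess of the counted genes and 1.03 on all. The filter at 7 left 0 genes for PIK3CA-H1047R against LacZ, because CDK6 stays below 7. At 1.5-fold the counts were 4 for Her2 against LacZ, 3 for PIK3CA-H1047R against LacZ, and for the double array 3 against PIK3CA-H1047R and 1 against Her2, beside 22.2%, 32.1%, 38.1% and 34.1% of all counted genes in that order. With the labels of the single-gene arrays exchanged, the counts for Her2 and PIK3CA-H1047R against LacZ became 1 and 0, and those of the double array against PIK3CA-H1047R and Her2 became 0 and 1, as the exchange itself requires. Of 50 differences of the 10 genes, 2 turned sign under quantile normalization and 2 under cyclic loess, all of them far under 2-fold. The 5 counted genes were read from the fit on counted genes, and the other 5 from the fit on all genes. CCND2, not counted, turned under both methods. CDK4 turned under quantile normalization (-0.047) and CDKN1A under cyclic loess (-0.055), both between the double and Her2 arrays. With the single-gene labels exchanged 10 of 50 turned sign, and the largest move of any of the 50 was 0.88. Over all counted genes, PIK3CA-H1047R against LacZ gave 303 higher and 176 lower genes, but 219 and 222 after quantile normalization and 239 and 223 after cyclic loess of the counted genes, and 284 and 194 with loess on all. The double array against Her2 gave 391 and 264, but 360 and 372, and 272 and 336 in those first 2 settings, and 396 and 258 with loess on all. Values near the array median give no measure of change.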
